A study of Mus musculus with 9 samples.

Results

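The mediobasal hypothalamus of control mice was profiled in 3 laser-captured samples, those of the mice injected with AAV-GFP, out of 9 samples in the study. They were taken by their treatment label, and no AAV-Cre sample was compared with them. The deposited values cover all 9 libraries. Some entries had 0 reads in all 3 controls, so the choice of entries drew on AAV-Cre libraries, and the scaling may have too. The study asked how loss of Snord116, a cluster of noncoding RNAs in the Prader-Willi locus, in the adult hypothalamus alters gene expression. All 9 mice were males of the C57/BL6 strain carrying the floxed allele (Snord116tm1Uta/J, homozygous per the study's methods), injected in the mediobasal hypothalamus at 10 to 12 weeks of age and taken 10 weeks later. The 3 controls received a virus with GFP under a CMV promoter in place of Cre, with the same surgery, and the floxed allele is shared by all groups. Each captured region came from a single brain slice, cut to match regions chosen in other mice by Cre staining, and each mouse gave 1 library from 500 pg of RNA. The mice are called mouse 1, mouse 2 and mouse 3 by the number in their label.

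The mediobasal hypothalamus lies on either side of the third ventricle at its base. It holds the arcuate nucleus, where Agrp/Npy neurons drive feeding and Pomc neurons restrain it, and the ventromedial nucleus, a glutamatergic nucleus specified by the transcription factor Nr5a1. The dorsomedial nucleus lies above, the lateral hypothalamus with its Pmch neurons to the side, and the mammillary and tuberomammillary nuclei behind.

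Values are the deposited signal, a read number relative to the TMM-adjusted size of its library and on the CPM scale. Reads on the 13588 entries numbered 4013871 in mouse 1, 4983985 in mouse 2 and 4954160 in mouse 3. The floor of 3 reads corresponded to a signal of 0.748, 0.574 and 0.583, and intervals and floors cover counting error only. Entries with a mean signal of at least 1 over the 3 mice numbered 13315. Levels were compared between genes only as signal per kb of merged exons, which was available for 13184 of these entries. Gfp, the control transgene, had a signal of 79.0 in mouse 1, 67.0 in mouse 2 and 62.7 in mouse 3, and Cre had 1, 5 and 0 reads. The Y-linked genes Ddx3y, Eif2s3y, Kdm5d and Uty had reads in every mouse, as the male label requires. Snord116 had no entry and is not analysed here.

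With all entries set side by side on the log2(signal + 1) scale, mouse 3 stood farthest from mouse 1. Across 13315 entries, Pearson's r was 0.905 (Spearman's rho 0.919) between mouse 1 and mouse 2, 0.874 (rho 0.895) between mouse 1 and mouse 3, and 0.920 (rho 0.933) between mouse 2 and mouse 3. These correlations are across genes, which are not independent replicates and which share their length and base composition between libraries. The library of mouse 3 held no read of the ventromedial transcription factors Nr5a1 and Fezf1, although its label names the same region as the others. Results that rest on mouse 3 are therefore also given without it.

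Mitochondrial and structural RNAs took a large share of the reads. Nuclear messenger RNAs held 70.6% ± 2.08 (SD, n = 3 mice) of the reads, mitochondrial ribosomal RNAs 19.9% ± 1.74, mitochondrial messenger RNAs 3.66% ± 0.277 and long noncoding RNAs 2.33% ± 0.248. The 10 highest entries held 27.9%, 24.1% and 25.5% of the reads in mice 1, 2 and 3. By signal per kb, the 20 highest entries comprised the ribosomal RNAs mt-Rnr2 and mt-Rnr1, 11 mitochondrial messenger RNAs led by mt-Atp6, the transfer RNAs mt-Tg and mt-Tv, the Y RNAs Rny3 and Rny1, the RNase P component Rpph1, the nuclear noncoding RNA Malat1 and Gm23935. Gm23935, annotated as a miRNA of 57 bases, overlaps Zc3h7a on the opposite strand, and a level per kb is uncertain for entries about as short as the 50-base reads. Among messenger RNAs encoded in the nucleus, the highest level was that of Apoe, the lipid carrier of astrocytes, at 1006 ± 23.2 per kb (SD, n = 3). Lars2 followed at 747 ± 242, with 777, 491 and 974 per kb in mice 1, 2 and 3. The chaperone Hsp90ab1 came next at 745 ± 71.0, then Sparcl1, a protein secreted by astrocytes, at 732 ± 80.5. Calmodulin Calm2 stood at 650 ± 78.1 and the imprinted Nap1l5 at 619 ± 63.1. The spread of Lars2 was wider than that of the others named.

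Secretory proteins of neuroendocrine cells were among the most abundant messenger RNAs, and the granins had a small median difference between mice. The granin Scg2, which helps form dense-core vesicles, had a signal of 994, 877 and 1084 in mice 1, 2 and 3. Its mean of 392 ± 41.4 per kb (SD, n = 3) lay at percentile 99.7 of all entries with a length. Pcsk1n, an inhibitor of prohormone convertase 1, had 285 ± 34.7 per kb, Chgb 192 ± 20.5, Scg3 112 ± 18.3, Chga 96.5 ± 14.5 and Scg5 96.1 ± 18.7. The enzymes that cut and trim prohormones covered a wider range of levels, from Cpe, the carboxypeptidase, at 242 ± 32.5 per kb to Pam, the amidating enzyme, at 38.1 ± 1.36, the convertase Pcsk2 at 14.5 ± 3.05 and the convertase Pcsk1 at 6.01 ± 1.77. Nhlh2, a transcription factor that acts on Pcsk1, stood at 1.66 ± 0.431 per kb, with a signal of 10.2, 6.32 and 10.5. The median difference between the highest and the lowest mouse was 0.43 on the log2(signal + 1) scale for the 7 granins. It was 0.68 for the 11 processing genes, beside 0.70 over all 13315 entries. The median signal was 308 for the granins and 28.5 for the processing genes, beside 22.4 over all entries. The part of abundance in the small median difference of the granins was not tested.

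Neuropeptide precursors were abundant too, but they spread widely between the mice. Of 43 precursors in the list, 20 had an entry, and all 20 passed the minimum signal. Oxt, Avp, Cck, Kiss1, Vip and Hcrt were among those that had no entry and are not analysed here. By mean signal per kb, Sst (somatostatin) came at the top with 154 ± 88.2 (SD, n = 3), then Pmch (melanin-concentrating hormone) with 141 ± 140, Npy with 96.5 ± 55.8, Cartpt with 89.3 ± 37.0, Gal (galanin) with 87.6 ± 75.5 and Penk (enkephalins) with 63.0 ± 35.7. Neighbours in this order do not differ beyond their spread over the mice. Pomc, the precursor of alpha-MSH, stood at 43.8 ± 35.3 per kb, and Agrp, the melanocortin antagonist, at 7.48 ± 6.15. Agrp overlaps Ctcf and Ripor1 on the opposite strand, and where counting did not use the strand its reads cannot be told apart from theirs.

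**Figure D1:**
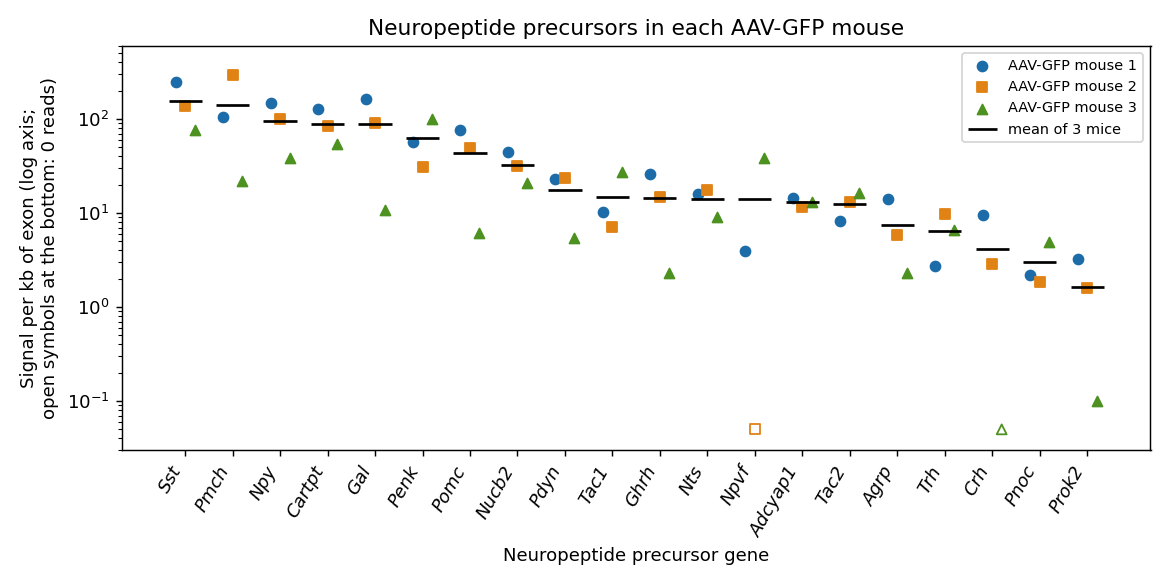
Signal per kb of exon (log axis) of the 20 neuropeptide precursors with an entry, one column per gene in order of the mean, with a symbol for each of the 3 AAV-GFP mice and a bar for their mean. Open symbols at the bottom stand for 0 reads. Mouse 3 is the lowest of the 3 for 13 of the 20 genes, while Penk, Tac1, Npvf, Tac2 and Pnoc are highest in mouse 3.

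A difference between mice was counted by size when the highest and the lowest library differed by at least 2 on the log2(signal + 1) scale and their exact 95% counting intervals did not overlap. By this rule 1126 of 13315 entries varied, which is 8.46%. Counting intervals alone were apart for 68.8% of entries, so at this depth most genes differed between libraries by more than counting error. Each mouse gave 1 library from 500 pg of RNA. Differences between mice and between library preparations thus cannot be told apart. A separate measure, edgeR's goodness-of-fit test, asks which entries spread more between the 3 mice than entries of like abundance, and it called 99 entries, or 0.744%, at a Benjamini-Hochberg adjusted p under 0.1. Of the 99, 83 also met the size rule. Leaving out mouse 3 left 11 goodness-of-fit calls, all 11 among the 99. Leaving out mouse 1 gave 81 calls and leaving out mouse 2 gave 60. Many genes named here overlap another annotated gene on the opposite strand (among them Pmch, Penk, Lmx1b, Foxb1, Ebf3, Gfap, Nr2f2 and Magel2), and without strand their reads cannot be told apart. The size rule gave 463 entries without mouse 3, 326 without mouse 1 and 749 without mouse 2.

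**Figure D2:**
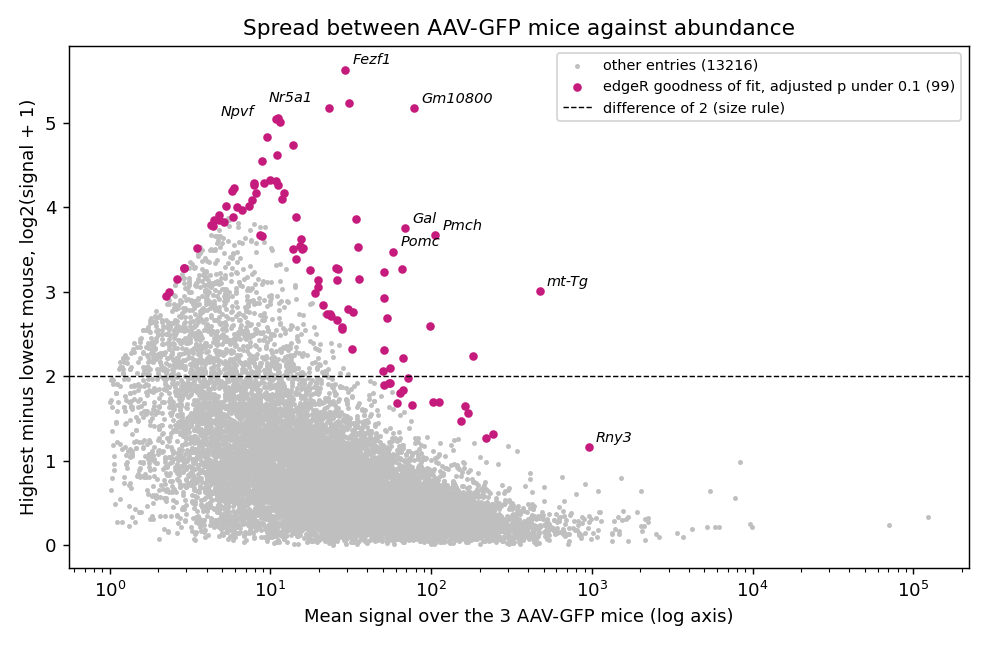
Difference between the highest and the lowest AAV-GFP mouse on the log2(signal + 1) scale against the mean signal (log axis), one point for each of 13315 entries. The 99 entries called by edgeR's goodness-of-fit test at an adjusted p under 0.1 are coloured, and the dashed line marks a difference of 2. Most entries lie under 1, while Fezf1, Nr5a1 and Npvf lie above 5.

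Among the neuropeptide precursors, 9 of 20 met the size rule, beside 8.46% of all entries, and 9 of 20 were called by edgeR's goodness of fit, beside 0.744%, with 5 in both. Their median difference between the highest and the lowest mouse was 1.90, beside 0.70 over all entries. Mouse 1 was highest for 11 of the 20 and mouse 3 lowest for 13, beside 36.3% and 34.04% over all entries. Without mouse 3, 1 of 20 met the size rule (Npvf), beside 3.48% of all entries. Of the 11 goodness-of-fit calls without mouse 3, Pmch was the only precursor.

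Upstream sequences are shown for 4 precursors, since the precursors as a list spread widely between mice. The 4 had the largest difference between mice among precursors for which RefSeq (GRCm38.p6) gave a promoter. Each line is the 80 bases before the annotated start on the gene's strand, with the TATA box letters TATAAA in capitals where they occur 50 to 11 bases before the start.
Npvf (chr6:50654446-50654525, minus strand): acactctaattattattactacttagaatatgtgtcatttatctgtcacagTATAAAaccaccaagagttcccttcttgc
Gal (chr19:3414545-3414624, minus strand): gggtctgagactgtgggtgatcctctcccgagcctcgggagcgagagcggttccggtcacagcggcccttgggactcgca
Pmch (chr10:88090992-88091071, plus strand): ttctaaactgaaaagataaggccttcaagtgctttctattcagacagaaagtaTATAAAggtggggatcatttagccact
Pomc (chr12:3954865-3954944, plus strand): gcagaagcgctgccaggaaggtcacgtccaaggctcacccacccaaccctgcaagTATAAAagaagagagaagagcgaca
Npvf, Pmch and Pomc held the letters, 29, 27 and 25 bases before the start, and Gal did not. Only the gene's strand was searched, and no other motif. Of 16 precursors with a promoter in the table, 4 held TATAAA in this window (25%), the other being Ghrh at 1 of its starts, beside 145 of 10070 entries with a promoter (1.44%) and 780 of 27025 genes in the table (2.89%). The match is a description of these letters, not of a factor.

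Pomc, at chr12:3954951-3960642, had a signal of 100 in mouse 1, 64.7 in mouse 2 and 8.16 in mouse 3. It was 12.3-fold higher in mouse 1 than in mouse 3 (adjusted p = 3.08e-07, edgeR goodness of fit with Benjamini-Hochberg adjustment). Here and below, the adjusted p refers to the spread over all 3 mice. The fold between 2 single mice is a description and was not tested. Gal, a peptide of many hypothalamic neurons, had the same order, with 127, 71.2 and 8.55, a 14.9-fold difference (adjusted p = 1.11e-09, edgeR goodness of fit). Npy had 84.8, 57.3 and 21.8, which is 3.90-fold (adjusted p = 0.0794, edgeR goodness of fit), and Agrp had 14.5, 5.94 and 2.33. In each of these 4 genes mouse 1 was highest and mouse 3 lowest.

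Pmch, the marker of a neuron type of the lateral hypothalamus, had a signal of 78.8 in mouse 1, 222 in mouse 2 and 16.5 in mouse 3. The 13.4-fold difference between mouse 2 and mouse 3 (adjusted p = 2.08e-13, edgeR goodness of fit) had mouse 2 and not mouse 1 on top. Pdyn (dynorphins) had 67.1, 68.6 and 15.7. Crh had 12.7, 3.83 and 0, and Ghrh, the growth hormone releasing hormone of arcuate neurons, had 17.2, 9.96 and 1.55.

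A smaller group was highest in mouse 3. Npvf, made by neurons of the dorsomedial nucleus, had 13 reads in mouse 1, 0 in mouse 2 and 161 in mouse 3, and its signal of 31.3 in mouse 3 was at least 54.4-fold higher than in mouse 2 (adjusted p = 1.38e-05, edgeR goodness of fit). Penk had a signal of 92.7, 50.4 and 166, and Tac1 (substance P) had 35.2, 24.1 and 92.4. Tac2, which encodes neurokinin B in arcuate neurons, had 45, 94 and 116 reads, a difference of 0.95 on the log2(signal + 1) scale. Adcyap1, a peptide of ventromedial neurons, varied least of the 20, with 55.1, 43.7 and 50.1.

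Markers of the arcuate and ventromedial nuclei were not opposed to each other between these mice. Of 10 arcuate markers tested, 6 were lowest in mouse 3, and of 11 ventromedial markers 7 were lowest there, beside 34.04% of all entries. The median deviation from the gene's mean over the mice, on the log2(signal + 1) scale, was 0.06, 0.22 and -0.56 in mice 1, 2 and 3 for arcuate markers and 0.32, 0.26 and -0.57 for ventromedial markers, beside 0.00, 0.02 and 0.01 over all entries. The summed signal was 416, 351 and 238 for the arcuate list and 590, 684 and 388 for the ventromedial list. Size-rule calls numbered 3 of 10 and 4 of 11, beside 4.74% of entries with a mean signal of at least 5, the range in which all these markers lay. All 7 of those calls had mouse 3 lowest, as had 366 entries, or 2.75%, of all tested. Without mouse 3, 0 of 10 and 0 of 11 met the rule, beside 3.48% of all entries. In such bulk samples, fewer cells of a type and less RNA per cell cannot be told apart, and the position of the capture was not measured.

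The arcuate list split within itself. Pomc, Npy, Agrp and Ghrh were low in mouse 3, as given above, and Prlr, the prolactin receptor, had a signal of 114, 79.7 and 68.2. Crabp1 had 8.23, 16.3 and 21.2 and Isl1, a LIM-homeodomain factor of Pomc neurons, 30.9, 37.7 and 51.1, so both, with Tac2, were highest in mouse 3. Tbx3, which keeps the identity of arcuate peptide neurons, had 28.7, 43.9 and 36.9, and Six6 had 5.98, 17.4 and 3.88. None of Prlr, Crabp1, Isl1, Tbx3 and Six6 met the size rule.

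The ventromedial list split between markers missing from mouse 3 and markers present in all. Fezf1, a zinc-finger factor of the nucleus at chr6:23245044-23248362, had 194 reads in mouse 1, 205 in mouse 2 and 0 in mouse 3. Its signal of 48.4 in mouse 1 was at least 83.0-fold higher than in mouse 3, where 0 reads allow a signal of up to 0.583 (adjusted p = 4.51e-11, edgeR goodness of fit). Nr5a1, at chr2:38692656-38714542, had 141, 177 and 0 reads and was at least 60.3-fold higher in mouse 1 than in mouse 3 (adjusted p = 1.35e-08, edgeR goodness of fit). Nr5a1 overlaps its antisense gene Nr5a1os. Nptx2, a neuronal pentraxin, had a signal of 33.2, 66.6 and 4.86. The other 7 ventromedial markers did not meet the size rule. Slc17a6, the vesicular glutamate transporter, had 170, 208 and 184, Bdnf had 15.0, 13.4 and 14.8, and Sox14 had 9.97, 5.74 and 8.74. Esr1, the estrogen receptor, had 33.7, 32.2 and 17.7, Slit3 had 39.9, 32.7 and 22.7, and Amigo2 had 121, 193 and 83.9.

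**Figure D3:**
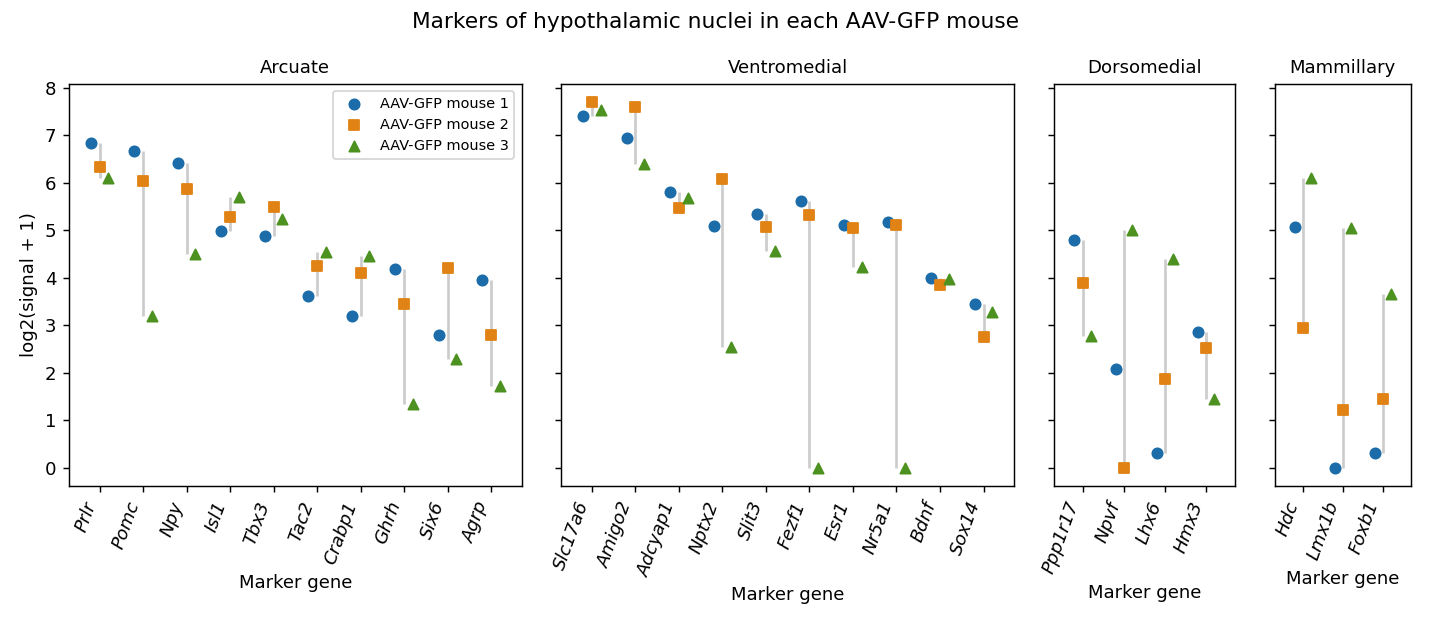
log2(signal + 1) of named markers of the arcuate, ventromedial, dorsomedial and mammillary nuclei in each of the 3 AAV-GFP mice, with a grey line from the lowest to the highest mouse. In mouse 3, Fezf1 and Nr5a1 lie at 0 while the mammillary markers shown are at their highest.

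Markers of the mammillary region were high in mouse 3. All 4 mammillary and tuberomammillary markers tested were highest in mouse 3 and met the size rule, as did 436 entries highest in mouse 3, or 3.27% of all tested. Lmx1b, a LIM-homeodomain factor at chr2:33560965-33640511, had 0, 7 and 166 reads in mice 1, 2 and 3, and was at least 43.1-fold higher in mouse 3 than in mouse 1 (adjusted p = 3.58e-06, edgeR goodness of fit). Foxb1, a forkhead factor of the mammillary body, had 1, 9 and 60. Hdc, the enzyme that makes histamine in tuberomammillary neurons, was present in every mouse, with a signal of 32.7, 6.70 and 67.4, and the monoamine transporter Slc18a2, which packs histamine into vesicles, had 22.4, 4.79 and 50.1 in the same order. Without mouse 3, 1 of these 4 markers met the rule, beside 3.48% of all entries. The other regional lists were split. Of 4 dorsomedial markers, Npvf and Lhx6 were highest in mouse 3, with 0.249, 2.68 and 20.2 for Lhx6, while Ppp1r17, with 26.9, 13.8 and 5.83, and Hmx3 were lowest there. All 3 lateral hypothalamic markers were lowest in mouse 3, and of 3 paraventricular markers 1 was highest and 1 lowest there.

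The 20 largest differences of all entries were dominated by genes at or near 0 reads in at least 1 mouse. Beside Fezf1, Nr5a1, Lmx1b and Npvf, they held the transcription factors Uncx with 5, 0 and 141 reads, Sim1 with 0, 22 and 115, Ebf3 with 2, 17 and 148 and Foxa1 with 0, 0 and 89. Nrn1, a membrane-bound neurotrophic protein that overlaps Fars2 on the opposite strand, had 1, 16 and 153 reads. The noncoding C130021I20Rik had 2, 0 and 164 reads. All of these but Fezf1 and Nr5a1 were highest in mouse 3. Hydin, a gene of motile cilia, had 73, 80 and 0 reads, and the interferon-induced Ifit1 had 82, 83 and 1, so both followed Fezf1 and Nr5a1 in being nearly absent from mouse 3. Phex had 104, 2 and 6 reads and Tert 73, 28 and 0. Ndst3 (0, 82 and 132 reads), Wdr83 (0, 57 and 98) and Casp9 (0, 27 and 95) were without a read in mouse 1. Gm10800 and Gm10801, with 693, 20 and 306 and 262, 4 and 136 reads, lie near each other on chromosome 2 and were both lowest in mouse 2. Their reads are uncertain, since the entries share near-identical sequence.

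By a rule chosen after the values were seen, an entry was taken as present at 50 or more reads and as absent at 3 or fewer. In mouse 3 alone, 5 entries were absent that both others had, and these were Fezf1, Fosl2, Hydin, Ifit1 and Nr5a1. Present in mouse 3 alone were 13, among them the transcription factors Barhl2, Foxa1, Irx5 and Lmx1a and the neuropeptide S receptor Npsr1. In mouse 1, 6 entries were absent that both others had, among them Acta2 of smooth muscle, and 2 were present only there. In mouse 2 the counts were 0 and 2.

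Transcription factors of hypothalamic identity, the longest list tested, spread widely between the mice. Of 53 tested, 17 (32.1%) met the rule, beside 8.46% of all entries, and among the 42 with a mean signal of at least 5, 12 did, beside 4.74%. The median difference was 1.35, beside 0.70 over all entries. Mouse 1 was highest for 22, mouse 2 for 9 and mouse 3 for 22. Without mouse 3, 5 of 53 met the rule, beside 3.48% of all entries. Those called highest in mouse 1 numbered 8, beside 397 (2.98%) of all entries, and they included Nkx2-2 with a signal of 20.2, 7.47 and 1.94 and Lhx1 with 19.95, 2.30 and 5.24. In mouse 3 the 9 called highest included Foxp2 with 5.24, 12.3 and 59.4, Bcl11b with 9.72, 14.4 and 42.1 and Onecut2 with 0.249, 4.596 and 5.05. No member was called highest in mouse 2, where 293 entries (2.2%) were. Nkx2-2, Lhx1, Foxp2, Bcl11b and Onecut2 were chosen after their values were seen.

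Peg3, Nkx2-1, Stat3, Six3 and Otp, of the same list, did not meet the size rule. The imprinted zinc-finger gene Peg3 had the highest level of the list, 188 ± 9.09 per kb (SD, n = 3). Nkx2-1, which specifies the ventral hypothalamus, had a signal of 35.7, 28.3 and 18.1, and Stat3, the factor activated by the leptin receptor, 97.7, 93.3 and 107. Six3 had 86.8, 60.5 and 23.9, and Otp, a factor of neuroendocrine neurons, 24.9, 15.3 and 11.5. Of the nuclear receptors, Thra had the highest level, 89.1 ± 14.6 per kb, then Nr1d1 with 15.1 ± 0.973 and Nr3c1, the glucocorticoid receptor, with 13.1 ± 2.55. Nr2f2, an orphan receptor chosen after its values were seen, had a signal of 69.3, 118 and 11.3 (adjusted p = 3.09e-07, edgeR goodness of fit). It and Nr5a1 were the 2 of 18 nuclear receptors (11.1%) that met the size rule. All 18 had a mean signal of at least 5, where 4.74% of entries met it. Without mouse 3, 0 of the 18 met it, beside 3.48% of all entries.

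Receptors for feeding signals were lower than the peptides, among genes with an entry. Their median percentile by signal per kb was 37.4, against 81.3 for the neuropeptide precursors. Of 33 genes in the receptor list 29 had an entry, against 20 of 43 precursors. Genes without an entry are left out of both percentiles, and the part of this in the contrast was not tested. Ntrk2, the Bdnf receptor, stood highest at 34.5 ± 4.42 per kb (SD, n = 3), then the ciliary neurotrophic factor receptor Cntfr at 21.8 ± 2.07 and the cannabinoid receptor Cnr1 at 10.8 ± 2.30. Lepr, the leptin receptor, had 1.80 ± 0.271 per kb and a signal of 14.7, 10.9 and 12.4, a difference of 0.40 on the log2(signal + 1) scale. Insr, the insulin receptor, had 45.4, 52.1 and 82.5, and Ghsr, the ghrelin receptor, 19.4, 13.0 and 6.80. The melanocortin receptors differed from each other, with Mc3r at 15.5, 6.89 and 6.41 and Mc4r at 9.23, 4.02 and 0.194. Socs3, an inhibitor of leptin signalling, had 3.99, 0.766 and 1.75.

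Of 29 receptors and ligands in that list, 4 (13.8%) met the size rule, beside 8.46% of all entries, and the median difference was 0.82, beside 0.70 over all entries. The 4 were Mc4r, highest in mouse 1, Gpr83, highest in mouse 2, and Mchr1 and Htr2c, highest in mouse 3. Htr2c, the serotonin receptor 2C, had a signal of 8.23, 11.9 and 57.3 (adjusted p = 0.0101, edgeR goodness of fit), and Mchr1, the receptor for melanin-concentrating hormone, had 0.499, 1.34 and 12.04. Gpr83 had 19.9, 26.4 and 5.63. Mc4r in mouse 3 and Mchr1 in mouse 1 lay under the floor of 3 reads. Mc4r, Mchr1, Gpr83 and Htr2c were chosen after their values were seen. Without mouse 3, 0 of 29 met the rule, beside 3.48% of all entries. With a pseudocount of 5, 1 of the 29 met it, beside 0.631% of all entries. Of 16 other peptide receptors, 3 met the rule at the pseudocount of 1 with all mice and 0 without mouse 1, where 2.45% of all entries did. The 3 were Oxtr with 3.99, 21.3 and 12.8, Crhr1 with 11.5, 1.53 and 3.69 and Oprm1 with 6.23, 12.3 and 28.9. With a pseudocount of 5, 0 of the 16 met the rule.

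Of 27 ion channels gated by transmitter, 0 met the size rule. All 27 had a mean signal of at least 5, where 4.74% of entries met it. Their median difference was 0.56, beside 0.70 over all entries, and their median signal 89.6, beside 22.4. Gria1, an AMPA receptor subunit, had 76.9 ± 10.0 per kb (SD, n = 3), Gria2 29.4 ± 0.999, the NMDA subunit Grin1 23.3 ± 1.11 and the GABA-A subunit Gabrq 33.4 ± 8.83. Genes of transmitter identity showed glutamatergic and GABAergic neurons side by side, with Gad2 at 38.4 ± 4.27, Slc17a6 at 34.6 ± 3.56, Gad1 at 20.3 ± 0.678 and the vesicular GABA transporter Slc32a1 at 12.9 ± 0.842 per kb. These 4 differed between mice by at most 0.32 on the log2(signal + 1) scale. Th, the rate-limiting enzyme of dopamine synthesis, had a signal of 15.96, 15.1 and 9.71. Hdc and Slc18a2 were the 2 of 11 in that list that met the size rule, beside 8.46% of all entries. All 10 pan-neuronal genes, such as Map2, Snap25 and Tubb3, fell short of it, with a median difference of 0.31, beside 0.70 over all entries. Their median signal was 239. The part of abundance in the median differences of the channels and the pan-neuronal genes was not tested.

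Glial genes were abundant, and oligodendrocyte genes leaned to mouse 3. The 18 astrocyte genes had a median percentile of 92.6 by signal per kb and a median difference of 0.32. Beside Apoe and Sparcl1, Clu stood at 111 ± 8.11 per kb (SD, n = 3), the glutamate transporter Slc1a2 at 111 ± 12.9 and Aldoc at 102 ± 6.81. Gfap, the intermediate filament of astrocytes, was the exception and was chosen after its values were seen. Its signal was 83.0 in mouse 1, 60.3 in mouse 2 and 10.1 in mouse 3 (8.22-fold, adjusted p = 9.25e-05, edgeR goodness of fit), whereas Aqp4 had 88.0, 116 and 82.1 and Aldh1l1 16.5, 31.4 and 25.6. Gfap was the 1 of 18 astrocyte genes (5.56%) that met the size rule. All 18 had a mean signal of at least 5, where 4.74% of entries met it. Without mouse 3, 0 of the 18 met it, beside 3.48% of all entries.

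Of 15 oligodendrocyte genes, 13 were highest in mouse 3 and 11 lowest in mouse 1, beside 34.1% and 37.8% of all entries. Mbp, a protein of compact myelin, had a signal of 311, 392 and 537, Mobp 153, 146 and 227 and Mal 29.4, 62.4 and 107. The summed signal of the 15 was 1327, 1480 and 2102. None of the 15, all with a mean signal of at least 5, met the size rule, beside 4.74% of entries in that range. Mal alone was called by edgeR goodness of fit (adjusted p = 0.0599). The median deviation in mouse 3 was 0.41 on the log2(signal + 1) scale. Of 5 markers of oligodendrocyte precursors, 3 were highest and 0 lowest in mouse 3, with a summed signal of 155, 172 and 204 and a median difference of 0.71, beside 0.79 for the oligodendrocyte genes.

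**Figure D4:**
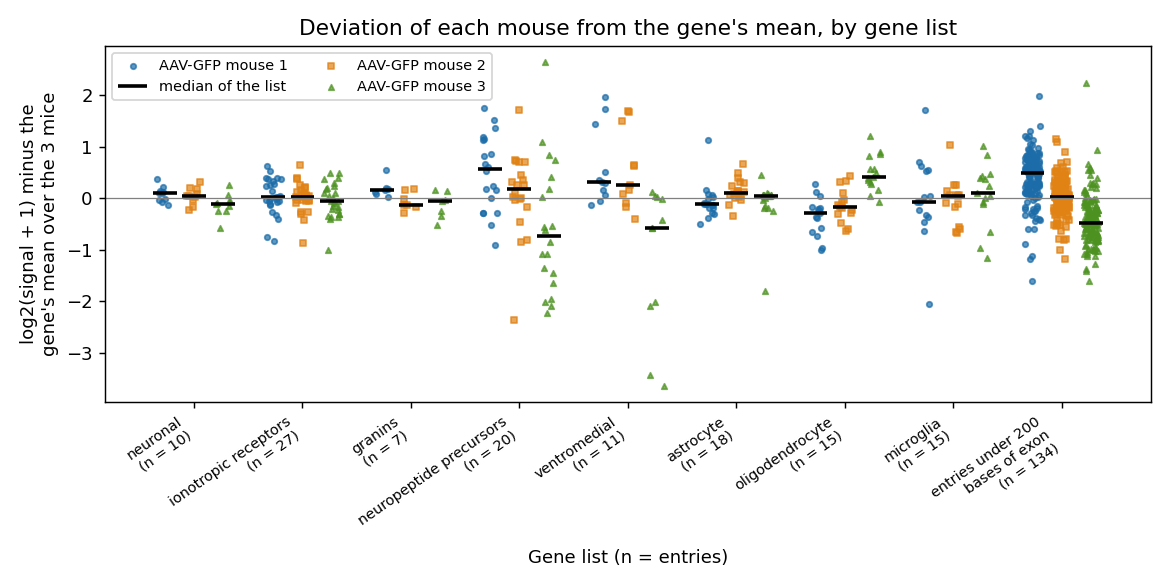
Deviation of each AAV-GFP mouse from the gene's mean over the 3 mice on the log2(signal + 1) scale, one point per gene and mouse, with black bars at the list medians. Neuronal genes and transmitter-gated channels lie near 0, ventromedial markers and neuropeptide precursors fall lowest in mouse 3, oligodendrocyte genes lie highest in mouse 3, and entries under 200 bases of exon lie highest in mouse 1.

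Microglial, endothelial and mural genes were present at lower levels. Ctss, a lysosomal protease of microglia, had a signal of 67.6, 74.1 and 70.5, and Cx3cr1, the fractalkine receptor, 25.7, 25.9 and 22.9. The median difference of the 15 microglial genes was 1.0045, and 2 (13.3%) met the size rule, beside 8.46% of all entries. The 2 were Tyrobp with 15.0, 2.30 and 1.17 and Tmem119 with 0.249, 9.57 and 9.52. Without mouse 1, 0 of the 15 met it, and with a pseudocount of 5 also 0, beside 2.45% and 0.631% of all entries. The endothelial glucose transporter Slc2a1 had 32.9, 39.8 and 30.3. Of 11 endothelial genes, 2 (18.2%) met the rule, beside 8.46% of all entries. The 2 were Esam with 15.96, 0.957 and 11.7 and Vwf with 27.7, 4.40 and 34.96. Without mouse 2, 0 of the 11 met it, and with a pseudocount of 5, 1 did, beside 5.63% and 0.631% of all entries. Of 7 mural genes, the contractile genes Myh11 and Acta2 and the channel subunit Abcc9 met the size rule, all lowest in mouse 1, beside 8.46% of all entries. Without mouse 1, 0 of the 7 met it, beside 2.45% of all entries. Myh11, a myosin of smooth muscle, had 3.24, 37.9 and 60.6 (adjusted p = 2.22e-05, edgeR goodness of fit), and Acta2 had 2, 74 and 82 reads, while the pericyte gene Rgs5 had a signal of 46.6, 68.9 and 51.3. Red cell genes were low, with Hbb-bs at 16.5, 7.66 and 12.6, and all 5 were highest in mouse 1. Of 8 lymphocyte markers, 2 reached a mean signal of 1 (Cd74 and Ptprc). The summed signal of these 2 was 5.49, 8.81 and 6.02. Pituitary, thalamic and cortical lists had few entries tested (1, 4 and 1), and 0 of these 6 met the size rule, beside 8.46% of all entries. Ependymal markers had no entry and are not analysed here. The part of cell composition in the differences between mice was not tested.

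Imprinted genes were high, and their median difference between mice was small. The median percentile of the 14 tested was 94.4 and their median difference 0.25, beside 0.70 over all entries. Their median signal was 375, beside 22.4 over all entries. By the size rule 1 of the 14 (7.14%) varied. All 14 had a mean signal of at least 5, where 4.74% of entries met the rule. The part of their abundance in the small median difference was not tested. Meg3, a maternally expressed noncoding RNA, had 300.2 ± 67.0 per kb (SD, n = 3), Nnat 158 ± 14.9 and Impact 115 ± 6.08. In the Prader-Willi region itself, Ndn had a signal of 613, 654 and 540 and Ube3a 253, 214 and 254. Magel2, a paternally expressed gene of that region, differed more, with 97.2, 81.6 and 20.2 (4.81-fold between mouse 1 and mouse 3, adjusted p = 0.00275, edgeR goodness of fit). Magel2 was thus low in the mouse in which Pomc, Gal and Nr5a1 were low.

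Short RNAs were mostly high in mouse 1 and low in mouse 3. Of 134 entries with under 200 bases of exon, 95 were highest in mouse 1 and 96 lowest in mouse 3 (70.9% and 71.6%), beside 36.3% and 34.04% of all entries. Mouse 1 exceeded mouse 2 and mouse 2 exceeded mouse 3 for 78 of the 134 (58.2%), beside 20.9% of all entries. The median deviation was 0.48, 0.02 and -0.48 on the log2(signal + 1) scale. Mitochondrial transfer RNAs held 0.174%, 0.114% and 0.0513% of the reads, with exact 95% intervals from 0.170% to 0.178%, from 0.111% to 0.117% and from 0.0493% to 0.0533%. Transfer RNA mt-Tg had a signal of 907, 397 and 112, an 8.08-fold difference (adjusted p = 3.89e-15, edgeR goodness of fit), and Rny1 had 356, 231 and 143. Mitochondrial messenger RNAs did not share this order, which held for 0 of 12. Of the 99 goodness-of-fit calls, 8 were such short entries, and 11 of the 134 met the size rule (8.21%), beside 8.46% of all entries. Their part in the other differences between mice was not tested.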

How the data were processed

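RNA of laser-captured mediobasal hypothalamus from 3 AAV-GFP mice was analysed. The authors mapped single-end 50-base reads to GRCm38 with TopHat2 2.0.11 (CASAVA 1.7, HTSeq, edgeR and limma are also in the submitters' processing notes) and deposited signal, that is, reads per gene relative to a TMM-adjusted library size, on the CPM scale. Whether counting used the strand is not given in the sources used here. All values (100% per library) were whole multiples of 1 read within a tolerance of 0.1, so whole reads were recovered. Symbols, positions and exon lengths come from GENCODE M21, which matched 13446 of 13586 identifiers. Promoter sequences come from RefSeq.

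Analyses used Python 3.11.15, pandas 2.3.3, scipy 1.17.1, R 4.3.3 and edgeR 4.0.16. Entries with a mean signal of at least 1 were kept, and log2 values used a pseudocount of 1. The size rule and exact (Clopper-Pearson) intervals are defined with the results. The goodness-of-fit test used an intercept-only fit to recovered reads with TMM and trended dispersion, Benjamini-Hochberg adjustment over 13315 entries and a threshold of 0.1. It was tested on simulated data. No groups were compared. Nothing in the sources states more than that these are separate mice, each with 1 library. The p-values thus measure the spread between these libraries.

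Genes were named by rule: the 20 highest per kb, the 20 largest differences, all arcuate and ventromedial markers, up to 6 highest members of each list, and the genes the study names. Further genes named to account for the calls within a list were chosen after their values were seen. The gene lists (341 of 426 genes had an entry) and this selection of samples were chosen with earlier results of these data known. Alternatives were pseudocounts of 0.1 and 5, other filters, centring, no TMM, DESeq2 1.42.0 size factors, a threshold of 0.05, the longest transcript as length and leaving out each mouse. Fold bounds use 3 reads per library. AAV-Cre libraries were not analysed here, though the choice of deposited entries, and perhaps the scaling, drew on them. Values of a few list members are not reported here, though list counts include them.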

Additional observations from a re-analysis of the deposited data

How the results depend on the processing

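The count of entries that varied by size moved from 1126 to 84 with a pseudocount of 5 and to 549 with a minimum mean signal of 5, and from 326 to 749 when each mouse was left out. With a pseudocount of 5, 4 of 20 neuropeptide precursors, 4 of 11 ventromedial markers and 1 of 10 arcuate markers met the rule. Over all entries, 0.631% did. Goodness-of-fit calls by edgeR ran from 11 to 81 without each mouse, beside 99 with all. A pseudocount of 0.1 gave 1685 by size, centring 1130 and no TMM scaling 1141. A minimum of 5 gave 110 goodness-of-fit calls, a threshold of 0.05 gave 73 and DESeq2 size factors gave 99. Orders of the mice within the region, oligodendrocyte and precursor lists kept their counts within 1.5 times under centring and a minimum of 5. No paired analysis was possible because only the AAV-GFP group was used and no groups were compared. Depth limits low genes, since 3 reads equal a signal of 0.574 to 0.748. Capture position and cell composition were not measured. RNA quality was assessed by the authors, but its values were not available here. None of the 3 can therefore be told apart from other differences between mice.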

Other observations

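Genes outside the lists, chosen after their values were seen, also varied between the AAV-GFP mice beyond genes of like abundance. Ptgds, which encodes prostaglandin D synthase, an enzyme of meninges and choroid plexus, had a signal of 337, 137 and 70.7 in mice 1, 2 and 3 (4.77-fold, adjusted p = 4.31e-07, edgeR goodness of fit with Benjamini-Hochberg adjustment). The choroid plexus genes Clic6 and Kl had 20.7, 26.2 and 20.2 and 21.2, 12.4 and 11.3, and neither met the size rule. The synaptic genes Nrgn (234, 180 and 74.0) and Cbln1 (62.1, 75.3 and 14.4) were lowest in mouse 3. Nr4a2, an orphan nuclear receptor, had 6.98, 5.94 and 66.0, the receptor tyrosine kinase Ret 15.0, 8.81 and 67.2 and the complement-like C1ql3 1.74, 1.91 and 39.4, so these 3 were highest in mouse 3.

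Immediate early genes, which respond to neuronal activity and handling, met the size rule in 0 of 9 cases, beside 8.46% of all entries. Mouse 2 was highest for 6 of the 9, with Egr1 at 43.4, 49.0 and 20.003 and Arc at 7.73, 19.5 and 12.6. Of genes that mark reactive glia, Serpina3n had 103, 57.4 and 50.9 and Vim 25.9, 23.7 and 23.7. Of 6 tested, 2 (33.3%) met the size rule, beside 8.46% of all entries. The 2 were Cd44 with 0.997, 7.28 and 2.14 and C3 with 0, 5.36 and 1.36, both highest in mouse 2 and lowest in mouse 1. With a pseudocount of 5, 0 of the 6 met the rule, as did 0 without mouse 1 and 0 without mouse 2. Over all entries these shares were 0.631%, 2.45% and 5.63%.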
